A study of Caenorhabditis elegans with 24 samples.

Results

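The core genes of insulin/IGF-1 signalling in Caenorhabditis elegans were followed through heat stress in RNAseq libraries of whole animals from 3 genotypes. The 9 genes, daf-2, ist-1, age-1, daf-18, pdk-1, akt-1, akt-2, sgk-1 and daf-16, were taken by gene name from the 46756 genes of the count tables. All 9 were found, and all 9 were among the 13482 genes that reached the minimum of 10 counts per library on average. Animals of the wildtype strain N2 (Bristol), of strain LRL31 with the hlh-30(tm1978) loss of function allele, and of strain LRL147 with the same allele and rab-3p::HLH-30::GFP had been raised on E. coli OP50 at 20°C. They were collected on the first adult day, 3 h after a shift to 37°C (heat stress) or in parallel from 20°C (control), and 4 libraries were deposited for each of the 6 groups. HLH-30 is the worm counterpart of the mammalian transcription factor TFEB, which drives autophagy and lysosome genes. The rab-3 promoter is active in neurons, so the neuronal HLH-30/TFEB rescued animals had HLH-30 in neurons while their other tissues kept the mutation. Only 1 rescued strain was sequenced, and each library came from a large pool of synchronized animals.

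In this pathway insulin-like peptides act on the receptor DAF-2, which switches on the lipid kinase AGE-1. The lipid that AGE-1 makes recruits and activates the protein kinases PDK-1, AKT-1, AKT-2 and SGK-1, and the phosphatase DAF-18 removes it again. AKT-1 and AKT-2 phosphorylate the FOXO transcription factor DAF-16 and so hold it in the cytoplasm. Worms with reduced DAF-2 activity are known for a long life and for resistance to heat, and both need DAF-16. Phosphorylation and nuclear entry carry most of this signal, and transcript counts measure neither.

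The table labelled wildtype 20°C replicate 1 held the same value as wildtype 37°C replicate 4 at all 46756 genes. The first of the pair was left out, which left 23 libraries and 3 in the wildtype 20°C group. Total counts ran from 11207383 to 28091186 with a median of 13971947, and 6 libraries were deeper than the other 17: 3 in wildtype at 37°C, 1 each in mutants at both temperatures, and 1 in rescued animals at 37°C. Levels are given as CPM, counts scaled to a common library total after each total was adjusted by its TMM factor. hlh-30 itself measured 39.9 to 73.7 CPM in wildtype and 8.11 to 15.99 CPM in mutants at 20°C, and 15.5 to 20.4 against 4.19 to 7.87 at 37°C. Rescued animals, whose counts can include the transgene, measured 57.3 to 117 and 24.4 to 50.8 CPM. Markers of neurons, muscle, intestine, germline, embryos, sperm and hypodermis were detected, with 1 hypodermis marker at 0 in every wildtype library at 20°C. Replicate 4 of wildtype and replicate 4 of rescued animals at 20°C stood apart, with summed embryo markers of 68.0 and 31.9 CPM where the other 21 libraries held 8.85 to 23.7 CPM. Both also had the lowest summed germline markers of their groups.

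Per kilobase of counted exon, the genes of the pathway differed widely in level. daf-18 was the most abundant, with a mean of 92.2 CPM per kilobase over the 23 libraries, above 86.4% of the genes kept. akt-1 followed at 60.3, then sgk-1 at 18.4, daf-16 at 12.002 and age-1 at 10.4 CPM per kilobase. pdk-1 at 4.41, akt-2 at 3.83 and the receptor gene daf-2 at 3.22 CPM per kilobase lay lower, above 33.5%, 31.0% and 28.3% of genes. ist-1 was the rarest, at 0.874 CPM per kilobase and above 8.7% of genes, and its raw counts of 11 to 135 per library set a wider error than the 2904 to 9208 counts of daf-18.

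**Figure D1:**
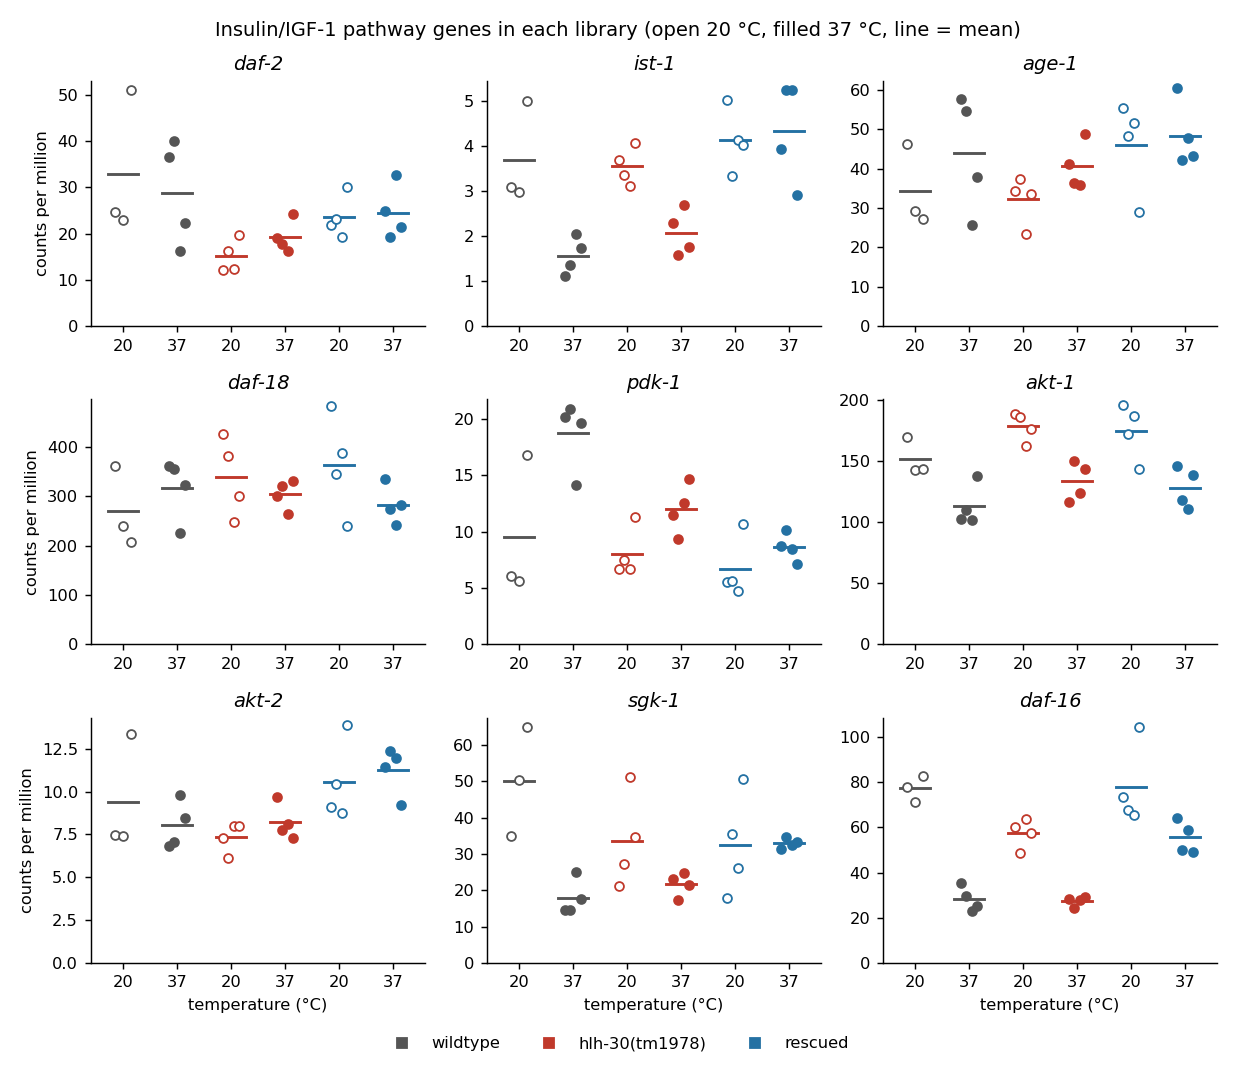
Each panel shows 1 gene, with CPM on the vertical axis and temperature on the horizontal axis; points are libraries (3 in wildtype at 20°C, 4 in each other group), open at 20°C and filled at 37°C, and lines are group means. daf-16 sits at 22.9 to 35.5 CPM in heat stressed wildtype, below every wildtype library at 20°C, and 1 high library is visible at 20°C in wildtype and in rescued animals for pdk-1.

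The receptor gene daf-2 (WBGene00000898, WBcel235 chromosome III, bases 2995487 to 3040860, minus strand) encodes the insulin/IGF-1 receptor of the worm. It measured 24.8, 22.8 and 51.1 CPM in the wildtype libraries at 20°C and 36.7, 40.0, 16.3 and 22.3 CPM at 37°C. Mutants held 12.1, 16.2, 12.3 and 19.6 CPM at 20°C against 18.97, 17.7, 16.2 and 24.2 CPM at 37°C. Rescued animals held 21.8, 23.1, 19.3 and 30.2 CPM at 20°C against 24.9, 19.2, 32.6 and 21.3 CPM at 37°C. Within each genotype the 2 temperatures overlapped, whereas at 20°C every mutant library lay below every wildtype library. By the quasi-likelihood test of edgeR, adjusted after Benjamini and Hochberg over all 13482 genes at a threshold of 0.05, heat gave log2 fold changes of -0.19 ± 0.39 (SE) in wildtype, 0.36 ± 0.20 in mutants and 0.10 ± 0.20 in rescued animals, none past the threshold.

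ist-1 (WBGene00002163, chromosome X, bases 7126648 to 7139646, plus strand) encodes a worm relative of the insulin receptor substrates that link receptor and lipid kinase. Wildtype libraries held 3.09, 2.98 and 4.99 CPM at 20°C against 1.12, 1.35, 2.04 and 1.73 CPM at 37°C. Mutants held 3.67, 3.36, 3.11 and 4.07 CPM against 2.28, 1.58, 2.68 and 1.74 CPM in heat. In both genotypes all heat stressed libraries lay below all control libraries. Rescued animals kept 3.92, 5.23, 5.23 and 2.90 CPM at 37°C beside 5.02, 3.32, 4.13 and 4.01 CPM at 20°C, and these overlapped. On the log2 scale ist-1 fell in wildtype (-1.23 ± 0.34, edgeR adjusted p = 0.022) and mutants (-0.77 ± 0.25, edgeR adjusted p = 0.027), with 0.11 ± 0.26 in rescued animals. The wildtype call was lost without 20°C replicate 4 (-0.96) and without 37°C replicates 1, 2 or 4 (-1.11, -1.18 and -1.25), with edgeR adjusted p from 0.057 to 0.060. In mutants it was lost without 20°C replicates 1, 2 or 4 (-0.75, -0.79 and -0.70) and without 37°C replicates 2 or 4 (-0.66 and -0.76), with edgeR adjusted p from 0.050 to 0.075.

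age-1 (WBGene00000090, chromosome II, bases 11519323 to 11527062, minus strand), the catalytic subunit of the lipid kinase, was among the genes that did not pass the heat test in any genotype. Its values were 46.3, 29.3 and 27.1 CPM in control wildtype and 57.6, 54.7, 25.7 and 37.8 CPM in heat stressed wildtype. Mutants measured 34.2, 37.3, 23.5 and 33.6 CPM at 20°C against 41.3, 36.4, 35.9 and 48.7 CPM at 37°C, and rescued animals 55.3, 48.4, 51.6 and 29.0 CPM against 60.4, 42.2, 47.8 and 43.1 CPM. Each pair of groups overlapped. The log2 fold changes were 0.35 ± 0.32 (wildtype), 0.34 ± 0.16 (mutants) and 0.11 ± 0.20 (rescued).

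daf-18 (WBGene00000913, chromosome IV, bases 419938 to 425181, minus strand), the phosphatase that opposes AGE-1, measured 361, 239.9 and 207 CPM in wildtype at 20°C and 361, 355, 225 and 323 CPM at 37°C. Mutants held 427, 381, 249 and 301 CPM beside 299.5, 321, 264 and 332 CPM at 37°C. Rescued animals had 482, 345, 388 and 240.1 CPM at 20°C against 335, 273, 241 and 282 CPM at 37°C. Control and heat stressed libraries overlapped in all 3 genotypes. The log2 fold changes of 0.22 ± 0.24 in wildtype, -0.16 ± 0.16 in mutants and -0.33 ± 0.19 in rescued animals did not pass, except that rescued animals without 20°C replicate 4 gave -0.48 (edgeR adjusted p = 0.030).

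pdk-1 (WBGene00003965, chromosome X, bases 1321353 to 1327985, plus strand), the kinase that activates the AKT kinases, was higher on average at 37°C in every genotype, with no difference past the threshold in edgeR and a higher level called by DESeq2 in wildtype and mutants. Wildtype libraries held 6.05, 5.601 and 16.8 CPM at 20°C against 20.2, 20.9, 14.1 and 19.7 CPM at 37°C. Mutants had 6.66, 7.48, 6.66 and 11.3 CPM against 11.5, 9.32, 12.57 and 14.7 CPM, and rescued animals 5.58, 5.64, 4.73 and 10.7 CPM against 8.70, 10.1, 8.48 and 7.17 CPM. In each genotype replicate 4 was the highest control library, and it alone made the groups overlap. The log2 fold changes were 0.98 ± 0.39 in wildtype (edgeR adjusted p = 0.083), 0.58 ± 0.22 in mutants (edgeR adjusted p = 0.052) and 0.41 ± 0.26 in rescued animals (edgeR adjusted p = 0.30). DESeq2 gave an adjusted p of 0.037 in wildtype and 0.045 in mutants, and edgeR with all libraries in 1 fit 0.020 in wildtype. Without replicate 4 at 20°C they were 1.67, 0.79 and 0.74 (edgeR adjusted p = 0.0036, 0.013 and 0.019), and mutants without 37°C replicate 2 also passed at 0.68 (edgeR adjusted p = 0.040). Those 3 libraries also had the highest embryo marker sums of their groups (68.0, 21.9 and 31.9 CPM), and their part in the pdk-1 values was not tested.

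Of the AKT genes, akt-1 passed the heat test in wildtype and mutants and akt-2 in no genotype; the difference between them was not tested. akt-1 (WBGene00000102, chromosome V, bases 10248907 to 10252895, plus strand) measured 169.8, 142.4 and 144 CPM in wildtype at 20°C and 103, 110.1, 102 and 138 CPM at 37°C, without overlap. Mutants held 189, 186, 162 and 177 CPM at 20°C against 117, 150.4, 124 and 143 CPM at 37°C, again without overlap. Rescued animals held 196, 172, 187 and 144 CPM and 146, 118, 111 and 139 CPM, and here 1 heat stressed library lay above the lowest control library. The heat stressed mean was 74.3% of the control mean in wildtype, 74.8% in mutants and 73.5% in rescued animals. akt-1 fell in wildtype (log2 fold change -0.44 ± 0.15, edgeR adjusted p = 0.049) and in mutants (-0.42 ± 0.11, edgeR adjusted p = 0.012). The value in rescued animals was -0.41 ± 0.14 (edgeR adjusted p = 0.054), and without 20°C replicate 4 it passed at -0.49 (edgeR adjusted p = 0.010). It also passed in 6 of 9 alternative settings, where akt-1 passed in 4 of 9 in wildtype and 9 of 9 in mutants. In wildtype the call held in only 1 of the 7 fits that left out a library, the one without 37°C replicate 4 (-0.51, edgeR adjusted p = 0.031), and the others gave -0.33 to -0.49. akt-1 shares 75 bases of counted exon with rop-1 on the opposite strand, which held 1524 to 5215 counts per library, and whether counting used strand is not given in the sources used here.

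akt-2 (WBGene00000103, chromosome X, bases 14147700 to 14152070, plus strand) held 7.45, 7.42 and 13.4 CPM in control wildtype and 6.80, 7.06, 9.79 and 8.45 CPM in heat. Mutants measured 7.27, 6.15, 7.97 and 8.004 CPM at 20°C against 9.67, 7.74, 8.13 and 7.30 CPM at 37°C. Rescued animals measured 9.13, 10.4, 8.73 and 13.9 CPM at 20°C against 11.4, 12.4, 11.96 and 9.22 CPM at 37°C. The temperatures overlapped in each genotype, and the log2 fold changes of -0.24 ± 0.27, 0.16 ± 0.18 and 0.13 ± 0.20 did not pass. Per kilobase, akt-1 exceeded akt-2 in every library, by a median ratio of 18.8 at 20°C and 15.03 at 37°C in wildtype, of 23.6 and 16.98 in mutants, and of 18.6 and 10.9 in rescued ones.

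sgk-1 (WBGene00004789, chromosome X, bases 16254843 to 16262151, minus strand) encodes a kinase that acts beside the AKT kinases and also downstream of the TOR complex that contains RICT-1. In wildtype it measured 34.95, 50.4 and 65.0 CPM at 20°C against 14.5, 14.4, 25.0 and 17.7 CPM at 37°C, without overlap. Mutants held 21.3, 27.1, 51.2 and 34.6 CPM at 20°C against 22.96, 17.4, 24.8 and 21.3 CPM at 37°C, and these overlapped. Rescued animals spread from 17.9 through 26.2 and 35.6 to 50.6 CPM at 20°C but lay close together at 37°C, at 31.5, 34.5, 32.5 and 33.3 CPM. The heat stressed mean was 35.7% of the control mean in wildtype, 64.4% in mutants and 101% in rescued animals. sgk-1 fell in wildtype (log2 fold change -1.49 ± 0.26, edgeR adjusted p = 0.0033), and this call held in all 7 fits that left out a library. The log2 fold changes were -0.64 ± 0.24 in mutants (edgeR adjusted p = 0.051) and 0.06 ± 0.24 in rescued animals (edgeR adjusted p = 0.90). The mutant value passed without 20°C replicate 1 (-0.80, edgeR adjusted p = 0.013) or replicate 2 (-0.73, edgeR adjusted p = 0.046). It also passed in 7 of the 9 alternative settings, DESeq2 (adjusted p = 0.025) and a term for the deeper libraries (edgeR adjusted p = 0.040) among them. In rescued animals the sign turned without 20°C replicate 1 (-0.17) or replicate 3 (-0.06).

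daf-16 (WBGene00000912, chromosome I, bases 10750343 to 10776700, plus strand) encodes the FOXO factor in which the pathway ends, and its 11 annotated transcripts were counted together. Wildtype libraries held 77.8, 71.2 and 82.8 CPM at 20°C against 35.5, 29.5, 22.9 and 25.3 CPM at 37°C. Mutants held 60.0, 48.6, 63.7 and 57.6 CPM at 20°C against 28.2, 24.2, 27.7 and 29.1 CPM at 37°C. Rescued animals held 73.4, 67.8, 65.4 and 104.5 CPM at 20°C against 64.3, 50.1, 58.8 and 49.2 CPM at 37°C. In all 3 genotypes every heat stressed library lay below every control library, with means of 36.6%, 47.5% and 71.5% of the control mean. daf-16 fell in wildtype (log2 fold change -1.46 ± 0.19, edgeR adjusted p = 0.00082) and in mutants (-1.07 ± 0.13, edgeR adjusted p = 6.6e-05), and both calls held in every fit that left out a library. Rescued animals gave -0.44 ± 0.17 (edgeR adjusted p = 0.080). Without 20°C replicate 4, the highest rescued library, the rescued value was -0.26 (edgeR adjusted p = 0.17). It passed in 0 of 8 fits that left out a library and in 3 of 9 alternative settings. A 2-sided exact permutation test on log2 CPM gave p = 0.0286 in mutants and in rescued animals and p = 0.0571 in wildtype. The same exact permutation test gave p = 0.0286 for ist-1 and akt-1 in mutants. In wildtype this exact permutation test gave p = 0.0571 for ist-1, akt-1 and sgk-1. These unadjusted values are the smallest that 4 against 4 and 4 against 3 libraries allow, so they restate the lack of overlap.

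**Figure D2:**
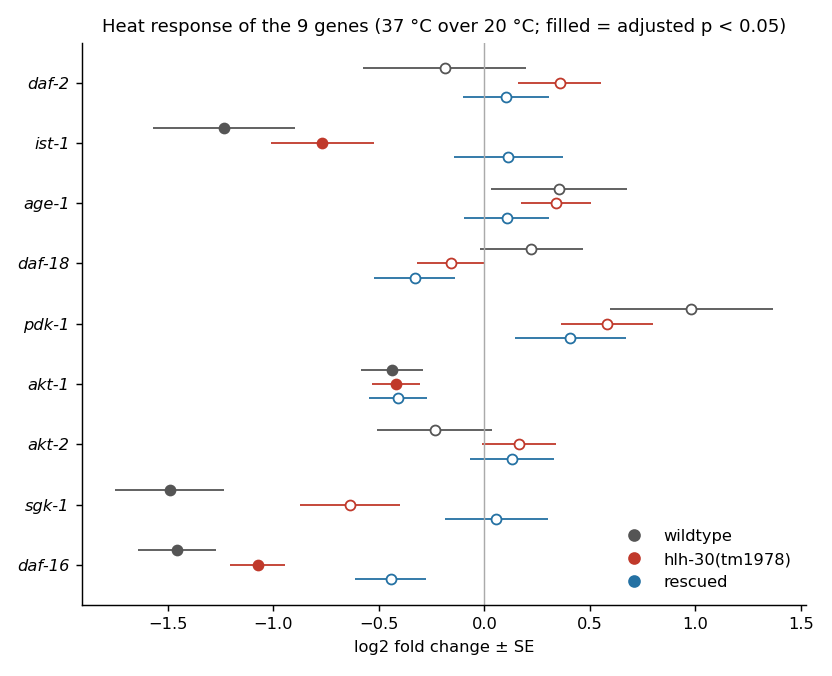
The horizontal axis gives the log2 fold change of each of the 9 genes at 37°C over 20°C, and the bars are standard errors from edgeR's quasi-likelihood fit in wildtype (grey), hlh-30(tm1978) mutants (red) and rescued animals (blue); filled points passed an adjusted p of 0.05. Wildtype has 4 filled points, all left of 0, mutants have 3 and rescued animals have none, and sgk-1 and daf-16 run from -1.49 and -1.46 in wildtype to 0.06 and -0.44 in rescued animals.

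Counted over the pathway, heat lowered 4 of the 9 transcripts in wildtype (ist-1, akt-1, sgk-1 and daf-16) and none rose in edgeR, beside 32.1% of all genes tested past the threshold. In mutants 3 fell (ist-1, akt-1 and daf-16) and none rose in edgeR, beside 38.1% of all genes. DESeq2 called 5 of the 9 in each, beside 5057 and 5358 of all 13482 genes, with pdk-1 higher in both and sgk-1 lower in mutants besides. In rescued animals 0 of the 9 passed edgeR's quasi-likelihood test, beside 20.4% of all genes. Of the 9, 2 had an unadjusted p under 0.05, beside 4517 of all 13482 genes, and DESeq2 called 1 (akt-1), beside 3160. Without 20°C replicate 4, 3 of the 9 passed edgeR (daf-18, pdk-1 and akt-1), beside 3524 of all genes. The median log2 fold change over the 9 genes was -0.24 in wildtype, -0.16 in mutants and 0.10 in rescued animals, where the medians over all genes were 0.01, 0.04 and 0.01. The wildtype call of akt-1 and that of ist-1 were also lost with a term for the deeper libraries, 3 of which were heat stressed wildtype, leaving 2 calls; sgk-1 and daf-16 kept theirs.

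Whether the response to heat itself differed between genotypes was tested as an interaction over all 23 libraries. Between mutants and wildtype, 0 of the 9 genes and 0 of the 13482 genes passed edgeR's test, which is 0% of the genes tested, while 585 of all genes had an unadjusted p under 0.05 and DESeq2 called 2. Of the 9 genes DESeq2 called 0, and 1 of the 9 (sgk-1, 0.84 ± 0.41) had an unadjusted p under 0.05. Between rescued animals and mutants 0 of the 9 passed in edgeR or DESeq2, beside 0.0445% of all genes in edgeR, and 2 (ist-1, 0.84 ± 0.36, and daf-16, 0.59 ± 0.22) had an unadjusted p under 0.05. Over all 13482 genes 1301 had an unadjusted p under 0.05 and DESeq2 called 76. Between rescued animals and wildtype 2 of the 9 passed, beside 3.08% of all genes, and both differences were positive. daf-16 differed by 0.97 ± 0.22 (edgeR adjusted p = 0.022) and sgk-1 by 1.496 ± 0.40 (edgeR adjusted p = 0.045), while ist-1 at 1.29 ± 0.37 missed the threshold (edgeR adjusted p = 0.056). DESeq2 called 3 of the 9, with ist-1 at an adjusted p of 0.020, beside 958 of all 13482 genes. ist-1 passed in 4 of its 9 alternative settings. The other 6 genes lay between -0.61 and 0.32.

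The interaction calls depended on single libraries. That of sgk-1 held in 3 of the 15 fits that left out a library, those without wildtype 20°C replicate 2, wildtype 37°C replicate 3 or rescued 20°C replicate 4, and over all 15 its value stayed between 1.26 and 1.79. That of daf-16 held in 12 of 15 and was lost without wildtype 20°C replicate 4 (0.92, edgeR adjusted p = 0.077), rescued 20°C replicate 1 (0.94, edgeR adjusted p = 0.051) or rescued 20°C replicate 3 (0.89, edgeR adjusted p = 0.054). Without wildtype 37°C replicate 4, the library deposited under 2 labels, daf-16 passed at 0.92 (edgeR adjusted p = 0.044) and sgk-1 missed at 1.49 (edgeR adjusted p = 0.071). ist-1 passed in 5 of the 15, without wildtype 20°C replicate 2 or 3, wildtype 37°C replicate 3, or replicate 4 of rescued animals at 20°C or 37°C, at 1.28 to 1.44. With both libraries rich in embryo markers left out together, a fit added after the data had been seen, daf-16 and sgk-1 passed at 1.09 and 1.56 (edgeR adjusted p = 0.0079 and 0.034), and ist-1 gave 1.00 (edgeR adjusted p = 0.16).

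At 20°C no gene of the pathway passed between any pair of genotypes. Between mutants and wildtype 0 of the 9 passed edgeR's test, beside 0.734% of all genes. Of the 9, 2 (daf-2 and daf-16) had an unadjusted p under 0.05, beside 2263 of all 13482 genes, and DESeq2 called 1 (daf-2), beside 426. daf-2 was at -1.12 ± 0.31 on the log2 scale (edgeR adjusted p = 0.17) and at -0.64 without wildtype replicate 4, its highest library. daf-16 was at -0.41 ± 0.14 (edgeR adjusted p = 0.23), and its mutant libraries, like those of daf-2, all lay below the wildtype libraries. Between rescued animals and mutants 0 of 9 passed edgeR, beside 23.1% of all genes, with 1 (daf-2, 0.57 ± 0.21, edgeR adjusted p = 0.073) at an unadjusted p under 0.05 and called by DESeq2. Over all 13482 genes these counts were 4832 and 3479. Rescued libraries lay above all mutant libraries in akt-2 (0.44 ± 0.20) and daf-16 (0.36 ± 0.17), neither past the threshold, and without rescued replicate 4 these values were 0.20 and 0.11. Between rescued animals and wildtype 0 of 9 passed edgeR, beside 12.9% of all genes, and 0 passed in DESeq2 or had an unadjusted p under 0.05. Over all 13482 genes these last counts were 2537 and 4032. The same 3 groups of control libraries enter all of these contrasts.

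At 37°C 4 of the 9 genes passed in both contrasts of rescued animals, close to the shares of all genes that passed. Rescued animals held more ist-1, sgk-1 and daf-16 and less pdk-1 than mutants, beside 36.8% of all genes past the threshold. The same 4 genes passed in the same directions against wildtype, beside 40.1% of all genes, and both contrasts share the rescued libraries. daf-16 was higher by 0.96 ± 0.14 on the log2 scale than in mutants (edgeR adjusted p = 0.00023) and by 0.92 ± 0.17 than in wildtype (edgeR adjusted p = 0.0019). The lowest rescued library, at 49.2 CPM, lay above the highest mutant library at 29.1 and the highest wildtype library at 35.5 CPM. sgk-1 was higher by 0.54 ± 0.14 and 0.82 ± 0.18 (edgeR adjusted p = 0.011 and 0.0041), and ist-1 by 0.99 ± 0.28 and 1.40 ± 0.29 (edgeR adjusted p = 0.014 and 0.0033), each without overlap. pdk-1 was lower in rescued animals by -1.18 ± 0.19 against wildtype, without overlap (edgeR adjusted p = 0.00068), and by -0.55 ± 0.19 against mutants, with overlap (edgeR adjusted p = 0.036). That last call held in 1 of 8 fits that left out a library, the one without mutant replicate 2 (-0.58, edgeR adjusted p = 0.040); the other 7 gave -0.44 to -0.56. The remaining 7 calls held in all 8 such fits of their contrast, the one without wildtype replicate 4 included. Of these, sgk-1 against mutants was lost with all libraries in 1 fit (0.61, edgeR adjusted p = 0.097). Between mutants and wildtype 0 of 9 passed edgeR, beside 0.764% of all genes, and 1 (pdk-1, -0.64 ± 0.19, edgeR adjusted p = 0.14) had an unadjusted p under 0.05 and was called by DESeq2. Over all 13482 genes these last counts were 2470 and 651.

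**Figure D3:**
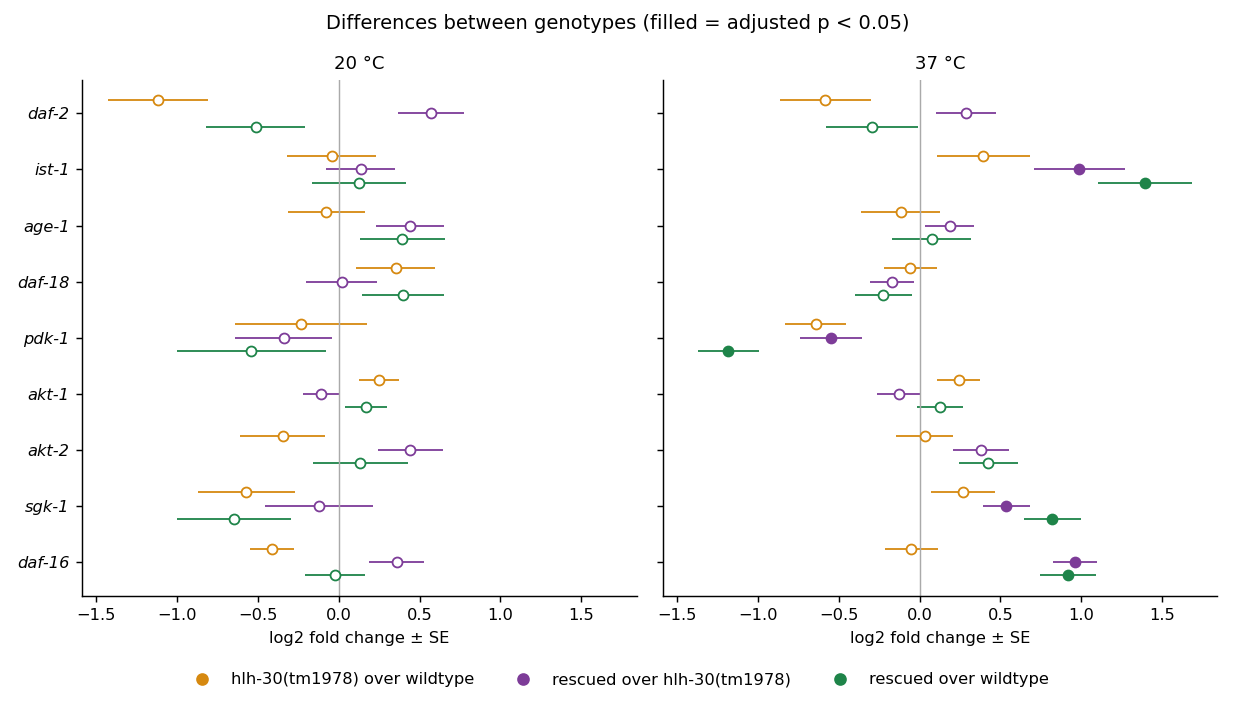
Log2 fold changes between genotypes are on the horizontal axis of both panels, at 20°C (left) and 37°C (right), with standard errors from edgeR's quasi-likelihood fit as bars; filled points passed an adjusted p of 0.05. No point is filled at 20°C, and at 37°C ist-1, pdk-1, sgk-1 and daf-16 are filled in both contrasts of rescued animals.

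Intestine markers fell with heat in wildtype and mutants, as ist-1, akt-1, sgk-1 and daf-16 did on average, whereas pdk-1 was higher on average. The summed level of ges-1, elt-2, act-5, vha-6 and pept-1 ran from 860 to 1311 CPM in wildtype at 20°C and from 86.0 to 213 CPM at 37°C, from 839 to 1503 and 122 to 211 CPM in mutants, and from 671 to 1782 and 403 to 474 CPM in rescued animals. All 5 fell with heat in wildtype and mutants and 2 (act-5 and pept-1) in rescued animals, and in the interaction of rescued animals against wildtype 4 of the 5 passed, all positive. Over all genes 32.1%, 38.1% and 20.4% passed for heat in these genotypes and 3.08% in that interaction. No intestine marker was at 0 in any group. As a description outside the planned tests, the libraries of each group were ranked by each gene and by the marker sum. For sgk-1 both rankings gave the same order in 5 of the 6 groups, all but rescued animals at 37°C. The same order was found in 1 of 6 groups for ist-1 and in 0 of 6 for each of the other 7 genes. No share over all genes is given for this count, and no other marker sum was ranked in this way. The germline sum ran in exactly the reverse order of sgk-1 in wildtype and in rescued animals at 20°C, and did not in the other groups. The shared order is therefore not shown to be particular to intestine markers. Summed germline markers went the other way, from 419 to 1096 CPM at 20°C to 1301 to 2200 CPM at 37°C in wildtype and from 543 to 944 to 1042 to 1547 CPM in mutants. In rescued animals they overlapped, at 548 to 1501 and 1035 to 1550 CPM. Of the 7 germline markers 3, 4 and 1 were called higher, close to the shares over all genes. Hypodermis sums were higher at 37°C without overlap in each genotype. Neuron sums were lower without overlap in wildtype and rescued animals, and overlapped in mutants. The part of intestine, germline, hypodermis or neuron RNA in the values of the 9 genes was not tested. In whole animals fewer cells of a type and less RNA per cell cannot be told apart.

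**Figure D4:**
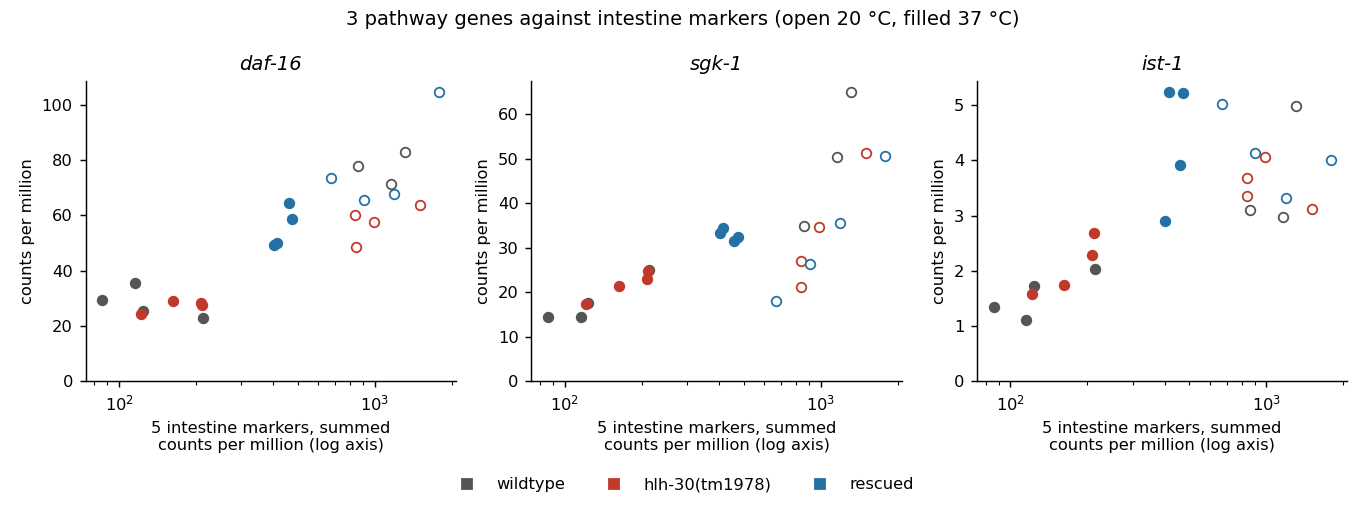
Each point is 1 of the 23 libraries; the horizontal axis is the summed CPM of 5 intestine markers on a log scale and the vertical axis is the CPM of daf-16, sgk-1 or ist-1. Heat stressed wildtype and mutant libraries lie at marker sums of 86.0 to 213 CPM and at the low end of each gene, and heat stressed rescued libraries at 403 to 474 CPM lie between them and the control libraries on the horizontal axis.

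Across the 23 libraries the members did not move as 1 block. As a description of log2 CPM over libraries that share groups and depth, the pairs with the highest Pearson r were ist-1 with daf-16 (0.767) and sgk-1 with daf-16 (0.697), and the lowest was pdk-1 with akt-1 (-0.68). daf-2 and daf-16, the receptor and the end of the pathway, had an r of 0.185. Among 9763 named genes with at least 50 counts on average, those most like daf-16 were F28C1.3, Y39B6A.1 and F46H5.7 (r = 0.963, 0.962 and 0.960), and those most like daf-2 were dnj-29, npp-25 and aakg-1 (r = 0.892, 0.866 and 0.864).

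Ordered by group mean, daf-16 ran from rescued and wildtype animals at 20°C (77.8 and 77.3 CPM) through control mutants (57.5) and heat stressed rescued animals (55.6) to wildtype and mutants at 37°C (28.3 and 27.3). Neighbours in that order were free of overlap at 2 steps, from wildtype to mutants at 20°C and from rescued animals to wildtype at 37°C. For ist-1 the 1 step without overlap was from mutants at 20°C (3.55 CPM) to mutants at 37°C (2.07). In the other 7 genes every group overlapped the next. No share over all genes is given for overlap, here or in the paragraphs above, so it describes these genes only.

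Genes that act on the pathway from outside its core gave calls in both directions. Of 20 regulators and partners of these proteins, 3 rose and 4 fell with heat in wildtype, 3 rose and 3 fell in mutants, and 2 rose and 5 fell in rescued animals, with medians of -0.18, 0.03 and -0.13 on the log2 scale. Over all genes 32.1%, 38.1% and 20.4% passed in these contrasts. par-5, an adaptor protein that binds phosphorylated DAF-16, rose by 1.11 ± 0.18 in wildtype, 0.98 ± 0.12 in mutants and 0.70 ± 0.17 in rescued animals. ftt-2, the other worm adaptor of that family, fell in the same order of genotypes (-0.70 ± 0.14, -0.59 ± 0.13 and -0.65 ± 0.15), so the 2 related genes changed in opposite directions everywhere. pptr-1, a phosphatase subunit that lowers AKT-1 phosphorylation, fell as well (-1.35 ± 0.20, -0.82 ± 0.17 and -0.88 ± 0.16). prmt-1, which methylates DAF-16 and so blocks its phosphorylation, rose by 1.16 ± 0.19, 0.99 ± 0.17 and 0.56 ± 0.17. rict-1, the TOR complex component upstream of SGK-1, rose in wildtype (1.09 ± 0.27) and mutants (0.89 ± 0.20). jnk-1, a stress kinase that acts on DAF-16, fell in mutants (-1.21 ± 0.32) and rescued animals (-1.19 ± 0.32), and the deacetylase gene sir-2.1 fell in rescued animals (-0.46 ± 0.11). pqm-1, a transcription factor that leaves the nucleus when DAF-16 enters it, fell in wildtype (-1.13 ± 0.23, edgeR adjusted p = 0.0073), with 0.04 ± 0.16 in mutants and 0.08 ± 0.20 in rescued animals. At 20°C it was already lower than wildtype in mutants (-1.11 ± 0.17) and rescued animals (-1.28 ± 0.25), and its interaction against wildtype was 1.17 ± 0.29 in both, past the threshold for rescued animals (edgeR adjusted p = 0.031) and not for mutants (edgeR adjusted p = 0.64). With a term for the deeper libraries the wildtype calls of pptr-1, rict-1, ftt-2 and pqm-1 were lost, and those of par-5 and prmt-1 were kept.

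Insulin-like ligands were mostly too rare to test. Of 7 ligand genes, 5 (daf-28, ins-1, ins-6, ins-18 and ins-35) stayed under the count minimum, with at most 19 counts in any library. ins-4 held 1.99 to 3.35 CPM in wildtype at 20°C and 1.20 to 3.55 CPM at 37°C, where mutants went from 1.52 to 3.02 CPM down to 0.158 to 0.415 CPM and rescued animals from 1.44 to 2.37 CPM down to 0.0762 to 0.713 CPM. It fell with heat in mutants (-2.78 ± 0.42, edgeR adjusted p = 0.00032) and in rescued animals (-2.19 ± 0.47, edgeR adjusted p = 0.0058), on at most 9 counts in a heat stressed library of either. Its interaction did not pass between mutants and wildtype (-2.54 ± 0.66, edgeR adjusted p = 0.83) or between rescued animals and wildtype (-1.98 ± 0.64, edgeR adjusted p = 0.087). ins-7 passed in no heat contrast. At 37°C ins-4 was lower than in wildtype in mutants (-3.06) and in rescued animals (-2.66), past the threshold in edgeR. Both calls held in all 8 alternative settings. ins-7 was also lower in rescued animals than in wildtype at 37°C (-1.14). Over all genes 0.764% passed between mutants and wildtype at 37°C, and 40.1% between rescued animals and wildtype. In the interaction of rescued animals against wildtype DESeq2 called 1 ligand gene, beside 958 of all genes.

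Genes known to respond to DAF-16 did not move as a group. Of 13 tested genes that DAF-16 is known to raise, 2 rose and 4 fell with heat in wildtype, 4 rose and 1 fell in mutants, and 2 rose and 0 fell in rescued animals, with medians of -0.25, -0.06 and 0.06, beside 32.1%, 38.1% and 20.4% of all genes past the threshold. lea-1, a desiccation protein gene, rose in each genotype, by 1.86 ± 0.34, 1.69 ± 0.28 and 0.91 ± 0.22. The small heat shock protein gene sip-1 rose in wildtype (1.41 ± 0.41) and mutants (1.24 ± 0.21), hsp-12.6 and the lysozyme gene lys-7 rose in mutants (0.98 ± 0.27 and 1.32 ± 0.33), and sod-3, the mitochondrial superoxide dismutase often used as a readout of DAF-16, rose in rescued animals (0.77 ± 0.20). dod-3, cdr-2 and the water channel gene aqp-1 fell in wildtype (-2.71 ± 0.29, -1.92 ± 0.19 and -1.10 ± 0.24), and cdr-2 also fell in mutants (-0.996 ± 0.241). Of 5 tested genes that DAF-16 is known to lower, 1 rose and 2 fell in wildtype, 1 rose and 4 fell in mutants, and 0 rose and 3 fell in rescued animals, with the same shares over all genes. dod-19 fell in each genotype (-2.37 ± 0.27, -1.68 ± 0.19 and -0.93 ± 0.20), whereas dod-22 rose in wildtype and mutants (1.94 ± 0.47 and 1.47 ± 0.43). The remaining 3 fell where they passed: dod-23 in wildtype and mutants (-1.39 ± 0.41 and -1.07 ± 0.38), and dod-17 and dod-24 in mutants (-0.84 ± 0.29 and -1.16 ± 0.29) and rescued animals (-1.17 ± 0.24 and -1.37 ± 0.37). The wildtype calls of sip-1, aqp-1, dod-22 and dod-23 were lost with a term for the deeper libraries.

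**Figure D5:**
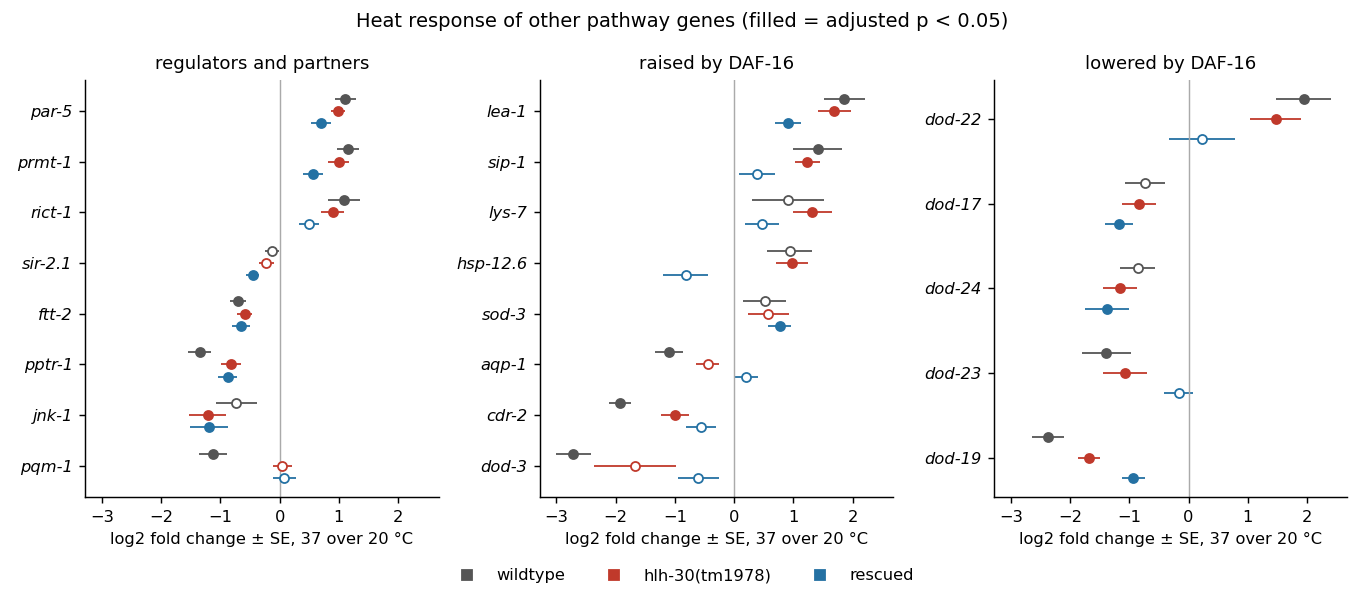
The horizontal axes give log2 fold changes at 37°C over 20°C with standard errors from edgeR's quasi-likelihood fit, for regulators and partners (left), genes known to be raised by DAF-16 (middle) and genes known to be lowered by it (right), in wildtype (grey), mutants (red) and rescued animals (blue); filled points passed an adjusted p of 0.05. par-5 and ftt-2 are filled in all 3 genotypes on opposite sides of 0, and both DAF-16 panels hold filled points on both sides.

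Between genotypes the DAF-16 genes gave calls in both directions too; these members were named after their values were seen. At 20°C mtl-1, a metallothionein gene, and icl-1, the glyoxylate cycle gene, were lower in mutants than in wildtype (-2.05 and -1.19), and the median over the 13 genes that DAF-16 raises was -0.83, where all genes had -0.07. Rescued animals at 20°C held more sod-3, lea-1, lys-7 and btb-16 than mutants (1.79, 1.14, 0.61 and 1.94). Heat stressed rescued animals held more sod-3, dod-3, icl-1, spp-1 and btb-16 (1.95, 1.34, 0.51, 0.88 and 1.85) and less hsp-12.6 (-2.17) than heat stressed mutants (edgeR, adjusted p under the threshold). The 1 gene of this list that differed between mutants and wildtype at 37°C was icl-1, at -1.34. Against wildtype, rescued animals held more of 1 and less of 4 of the 13 genes at 20°C (median -0.71). At 37°C they held more of 3 and less of 4 (median -0.47). Over all genes 0.734%, 23.1% and 12.9% passed at 20°C for mutants against wildtype, rescued animals against mutants and rescued animals against wildtype. At 37°C these shares were 0.764%, 36.8% and 40.1%.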

How the data were processed

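The authors trimmed reads with Trimmomatic, aligned them with STAR to WBcel235 and deposited raw gene counts from featureCounts (Subread), 1 table per library; the strand setting is not given in the sources used here. Counts for 46756 genes were joined, wildtype 20°C replicate 1 was left out as a duplicate, and genes averaging at least 10 counts were kept (13482). Tests used edgeR 4.0.16 (quasi-likelihood, TMM scaling) in R 4.3.3 with limma 3.58.1, fitted on the libraries compared, or on all 23 for interactions, with Benjamini-Hochberg adjustment over all genes kept and a threshold of 0.05. Levels are CPM, counts scaled to a common library total after TMM factors from all 23 libraries adjusted each total. A prior count of 2 was used for log2 CPM. Exact permutation tests used scipy 1.17.1. Gene positions are those of the deposited tables, and transcripts those of Ensembl release 115.

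The 9 genes, the gene lists and the markers were chosen with earlier results of these data known. All 9 are described; list genes are named where they passed in a heat contrast, at most 8 per list by smallest adjusted p. Dod-20, dod-21 and scl-1 stayed under the count minimum and sodh-1 matched no gene name. Alternatives were other scaling factors, count minimums, a replicate block, all libraries in 1 fit, a depth term, DESeq2 1.42.0, and leaving out each library. The scripts were tested on simulated data. Deviations of same-numbered replicates from their group means did not correlate above 0.1 in every pair of any comparison (lowest pair 0.0277 for heat in mutants, where all 4 were positive), so no block was used in the main fits. Replicate 4 at 20°C did deviate alike between genotypes, with correlations of 0.359 (mutants and wildtype), 0.369 (rescued and mutants) and 0.58 (rescued and wildtype). A block moved the calls over all genes from 1742 to 2751 for rescued animals against wildtype at 20°C. For heat it moved them from 5137 to 5941 in mutants and from 4328 to 3824 in wildtype. The study's methods call the replicates independent, each a separate pool of synchronized animals. Total counts of 11207383 to 28091186 limit the rare genes most.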

Additional observations from a re-analysis of the deposited data

Results flagged for a closer look

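Replicate 4 of rescued animals at 20°C held 10.7 CPM of pdk-1, the kinase that activates the AKT kinases, where the other 3 libraries of its group held 4.73 to 5.64 CPM. Its gap to the nearest library was 0.848 of the range of the group, above Dixon's critical value for 4 samples. It was the only 1 of 45 groups of 4 libraries tested to pass, and chance alone marks about 1 group in 20. The same library had the highest embryo marker sum of its group, whose part in the pdk-1 value was not tested.

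The heat response of 2 genes differed between rescued animals and wildtype in the interaction test, by 1.496 on the log2 scale for sgk-1 and by 0.97 for daf-16, with the values without single libraries given above.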

How the results depend on the processing

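Counts of the 9 genes past the threshold moved with some settings. In heat stressed wildtype the count of 4 became 2 with a replicate block or a depth term and 2 to 3 without single libraries, but 5 with DESeq2 or all libraries in 1 fit and 3 with DESeq2 size factors or upper quartile factors. The mutant count of 3 became 5 with the replicate block or DESeq2 and 4 with DESeq2 size factors, library size only, the stricter filter or the depth term. The rescued count of 0 became 1 with upper quartile factors, the stricter filter or DESeq2, 2 with library size only, no filter or all libraries in 1 fit, and 0 to 3 without single libraries. At 20°C the count of 0 for mutants against wildtype became 1 with all libraries in 1 fit or DESeq2. For rescued animals against mutants it became 1 with library size only, the replicate block, all libraries in 1 fit or DESeq2, and 0 to 2 without single libraries. At 37°C mutants against wildtype gave 1 with DESeq2, and rescued animals against mutants 2 of 4 with all libraries in 1 fit, where pdk-1 and sgk-1 were lost. In that last contrast pdk-1 passed in only 3 of its 9 alternative settings. It was lost with upper quartile factors, library size only, no filter and the stricter filter as well. The interaction count of 2 for rescued animals against wildtype became 1 with upper quartile factors, 3 with library size only, the stricter filter, the depth term or DESeq2, and 0 to 3 without single libraries. With the replicate block the other counts were 0 for heat in rescued animals, 3 and 4 for rescued animals against mutants and wildtype at 37°C, and 2 for that interaction. The cause of these moves was not tested.

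Signs turned for genes near 0. daf-2 in heat stressed wildtype gave 0.17 with the depth term and -0.41 to 0.26 without single libraries, and akt-2 there gave -0.379 to 0.0926. In rescued animals daf-2 gave -0.0855 with the depth term and -0.10 to 0.25 without single libraries, ist-1 -0.0135 and -0.0268 to 0.263, age-1 -0.0521 to 0.191, and sgk-1 -0.0179 with library size only and -0.17 to 0.35. Of 1318 alternatives over 98 single values, 1189 kept direction and side of the threshold, 69 lost it, 46 gained it and 14 turned.

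Over all genes, library size only gave 2152 higher and 3146 lower calls for heat in mutants (2869 and 2268 with TMM), 1296 and 1522 in rescued animals (1580 and 1176), 1742 and 1394 for rescued animals against mutants at 20°C (1359 and 1762), 891 and 749 against wildtype (674 and 1068), and at 37°C 3326 and 1918 (2228 and 2737) and 3705 and 1933 (2453 and 2956). Upper quartile factors gave 2946 and 2159 for rescued animals against mutants at 37°C. The depth term gave 1350 calls for heat in wildtype where the fit without it gave 4328. It could not be fitted for rescued animals against wildtype at 20°C, which held no deeper library. List genes were not refitted without single libraries. Raw counts of 11 to 135 limit ist-1 most.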
